A study of Mus musculus with 12 samples.

Results

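The nuclear-encoded genes of the mitochondrial respiratory chain and of ATP synthase were described in cultured mouse cortical glial cells. Members were protein-coding genes with symbols starting in Nduf, Uqcr, Cox4 to Cox8 or Atp5, and the genes Sdha, Sdhb, Sdhc and Sdhd, with a total of at least 120 counts over 12 libraries. This gave 94 of the 43322 genes in the count table. By symbol, 51 belonged to complex I, 4 to complex II, 8 to complex III, 14 to complex IV and 17 to complex V. A further 5 matching genes fell under 120 counts: Ndufb11b had 0, Cox8c 1, Cox8b 11, Cox7b2 25 and Cox6a2 26. The members just above that minimum were Ndufa4l2 with a total of 217 counts, Ndufs6b with 661.83 and Cox4i2 with 1190.

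The respiratory chain sits in the inner mitochondrial membrane. Complex I takes electrons from NADH and complex II from succinate, complex III passes them to cytochrome c, and complex IV hands them to oxygen. Complexes I, III and IV pump protons, and complex V, the ATP synthase, lets them flow back through a rotating ring of c subunits and makes ATP. Most subunits are encoded in the nucleus and imported, while a small core is encoded in mitochondrial DNA. In astrocytes, which also rely strongly on glycolysis, oxidative metabolism supports the uptake of glutamate and potassium.

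Poly-A RNA was sequenced from 3 groups of 4 libraries. All groups were wild-type CD1 mouse cells from the postnatal cortex, taken at P3 to P5, grown with epidermal growth factor and replated once, and labelled as astrocytes in primary culture. Controls received vehicle, thapsigargin was applied at 3 µM for 60 min, and the calcium-free group was kept for 60 min in medium without calcium and with EGTA. Thapsigargin blocks the SERCA pumps that load calcium into the endoplasmic reticulum, EGTA binds calcium outside the cell, and the series asks which calcium signalling genes change. The 4 libraries of a group are called biological replicates. Which of them came from the same preparation of cells is not given in the sources used here, so p-values measure the spread between these libraries.

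Library totals were 36.19 to 42.57 M counts, and 17077 genes were tested, among them all 94 members. All 12 astrocyte markers of the list used were detected, with a summed level of 8380 to 9500 CPM (counts scaled to a total of 1 M) in controls, and Slc1a3, the glutamate transporter GLAST, stood at 2640 ± 83.0 CPM (SD, n = 4). Microglia markers summed to 151 to 229 CPM in controls, and muscle markers to 3.46 to 4.53 CPM. Oligodendrocyte lineage markers summed to 1570 to 1720 CPM in controls, neuronal markers to 398 to 430 CPM and ependymal markers to 203 to 224 CPM. Fibroblast and vascular markers ran from 516 to 1430 CPM between control libraries, with Col1a1 at 73.2 to 632 CPM. Proliferation markers summed to 1610 to 2100 CPM. Replicate 4 of every group stood apart: Xist, the RNA of the inactive X chromosome, lay between 588 and 740 CPM in it and reached no more than 0.319 CPM elsewhere. Counts of library pairs within a group were also compared by chi-square per degree of freedom. Among numbers 1 to 3 this was 2.205 to 3.739 in controls, 1.663 to 5.084 with thapsigargin and 3.859 to 19.05 in calcium-free medium. For pairs with number 4 it was 38.11 to 46.13. Whether libraries 1 to 3 are separate cultures is not given, so n = 4 counts libraries. Because replicate 4 stood apart, results are also given without it where that changes them.

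The promoter stretches show the DNA in front of the gene of each complex with the smallest p for thapsigargin against control. Each is the 200 bases before the annotated start, 5′ to 3′ on the gene's strand, from RefSeq in build GRCm38.p6, an older build than the GRCm39 of the counts. Capitals mark, on either strand, GCGC, any 2 bases and GCGC again (the core of the NRF1 motif), CCGGAA (core of ETS factor motifs such as that of GABP), AAGATGGC (YY1), CCAAT and GGGCGG (GC box).
Ndufa4, chr6:11907451-11907650, minus strand: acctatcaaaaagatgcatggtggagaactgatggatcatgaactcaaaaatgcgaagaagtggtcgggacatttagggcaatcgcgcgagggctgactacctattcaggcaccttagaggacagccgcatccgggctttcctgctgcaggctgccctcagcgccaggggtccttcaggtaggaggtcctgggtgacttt
Sdhd, chr9:50603850-50604049, minus strand: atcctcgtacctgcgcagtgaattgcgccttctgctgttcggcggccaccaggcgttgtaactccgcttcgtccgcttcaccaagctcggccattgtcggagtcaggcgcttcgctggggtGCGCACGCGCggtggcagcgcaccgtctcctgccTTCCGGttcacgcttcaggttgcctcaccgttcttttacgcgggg
Uqcrh, chr4:116075071-116075270, minus strand: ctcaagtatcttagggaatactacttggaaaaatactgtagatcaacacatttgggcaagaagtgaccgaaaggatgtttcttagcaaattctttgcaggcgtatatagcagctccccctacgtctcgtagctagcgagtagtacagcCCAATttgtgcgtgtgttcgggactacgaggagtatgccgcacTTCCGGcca
Cox6b1, chr7:30626115-30626314, minus strand: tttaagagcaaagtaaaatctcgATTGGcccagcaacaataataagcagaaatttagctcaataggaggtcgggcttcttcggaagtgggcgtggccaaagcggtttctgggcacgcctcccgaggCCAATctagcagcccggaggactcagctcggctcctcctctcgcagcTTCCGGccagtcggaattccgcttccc
Atp5g3, chr2:73911327-73911526, minus strand: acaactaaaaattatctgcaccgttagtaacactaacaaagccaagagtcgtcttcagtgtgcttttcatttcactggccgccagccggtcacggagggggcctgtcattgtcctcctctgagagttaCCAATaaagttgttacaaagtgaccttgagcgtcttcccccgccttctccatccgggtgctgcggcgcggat

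NRF1, GABP and YY1 are textbook activators of respiratory chain genes. The Sdhd stretch holds an NRF1 core match at -79 to -70 and a CCGGAA match at -45 to -40, counted from the annotated start. Uqcrh and Cox6b1 each hold a CCGGAA match close to the start, at -9 to -4 and at -27 to -22, and CCAAT matches at -52 to -48 in Uqcrh and at -74 to -70 and, on the other strand, -177 to -173 in Cox6b1. Atp5g3 has a CCAAT match at -72 to -68, and Ndufa4 has none of these letters in its window. Of the members, 76 had an entry in the promoter table. In the 250 bases before the start, 21.1% of them held the NRF1 core, against 10.7% of the 12732 tested genes with an entry and 5.0% of all 32851 promoters. The full NRF1 palindrome, which has AT as the middle bases and lies within that pattern, was in 6.6% of members, 1.6% of tested genes and 0.8% of all promoters. CCGGAA was in 28.9%, 22.7% and 12%, CCAAT in 43.4%, 40.3% and 33.8%, and AAGATGGC in 1.3%, 2.3% and 1.6%. GGGCGG went the other way, in 39.5% of members and 60.3% of tested genes, with 32.7% of all promoters. The longer ETS motif CCGGAAGT, which contains CCGGAA and matched at -11 to -4 in Uqcrh, was in 3.9%, 5.9% and 2.9%. TATAAA was in 7.9%, 8.6% and 12.4%, and TGACGTCA (the CRE of CREB) in 5.3%, 2.8% and 1.5%. A member or tested gene was counted if any of its promoter entries matched, whereas all promoters were counted entry by entry, so the last share is an unlike measure. These shares describe letters and were not tested.

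In controls the members were among the strongly expressed genes, with a median of 294 TPM (transcripts scaled to a total of 1 M, a level per length) against 11.9 TPM over all tested genes. Of the 94, 79 were above 100 TPM and 4 under 10 TPM. Atp5b, the catalytic beta subunit of ATP synthase, led with 3150 ± 59.5 TPM (SD, n = 4). Atp5a1, its alpha partner, followed at 1680 ± 5.42 TPM beside Cox8a, a small complex IV subunit, at 1660 ± 34.9 TPM, and the ranges of this pair overlapped. Cox6b1 (1270 ± 9.64), Cox4i1 (1260 ± 44.8) and Cox6a1 (1190 ± 54.6 TPM) of complex IV came next, with ranges over the control libraries that overlapped. Ndufa4 stood at 1160 ± 16.8 TPM. It carries a complex I symbol but is now regarded as a complex IV subunit, and it was kept under complex I by its symbol. The highest level in complex III was that of the hinge protein gene Uqcrh at 1100 ± 7.90 TPM, and in complex II that of the flavoprotein gene Sdha at 526 ± 10.5 TPM.

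The 4 Sdh genes lay close together, from 422 ± 5.49 TPM for Sdhd to that of Sdha. The lowest levels in the other complexes were 1.37 ± 0.348 TPM for Ndufa4l2, 194 ± 8.11 TPM for Uqcrq, 9.60 ± 1.82 TPM for Cox4i2 and 185 ± 6.85 TPM for Atp5l. Assembly factor genes of complex I (Ndufaf), whose products build the complex without staying in it, ran from 6.09 ± 0.188 TPM for Ndufaf6 to 65.8 ± 3.31 TPM for Ndufaf8, below most of the subunit genes. Isoforms known from muscle, lung or testis, and Ndufa4l2, were low beside their broadly expressed partners. Per length, Cox4i2 reached 0.761 ± 0.142% of Cox4i1, Cox7a1 8.19 ± 1.5% of Cox7a2, and Ndufa4l2 0.118 ± 0.0305% of Ndufa4 (SD, n = 4). Cox6b2, named for its expression in testis, was at 11.9 ± 0.375% of Cox6b1. Cox6a2, Cox7b2, Cox8b and Cox8c were the complex IV isoforms that stayed under the count minimum.

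**Figure D1:**
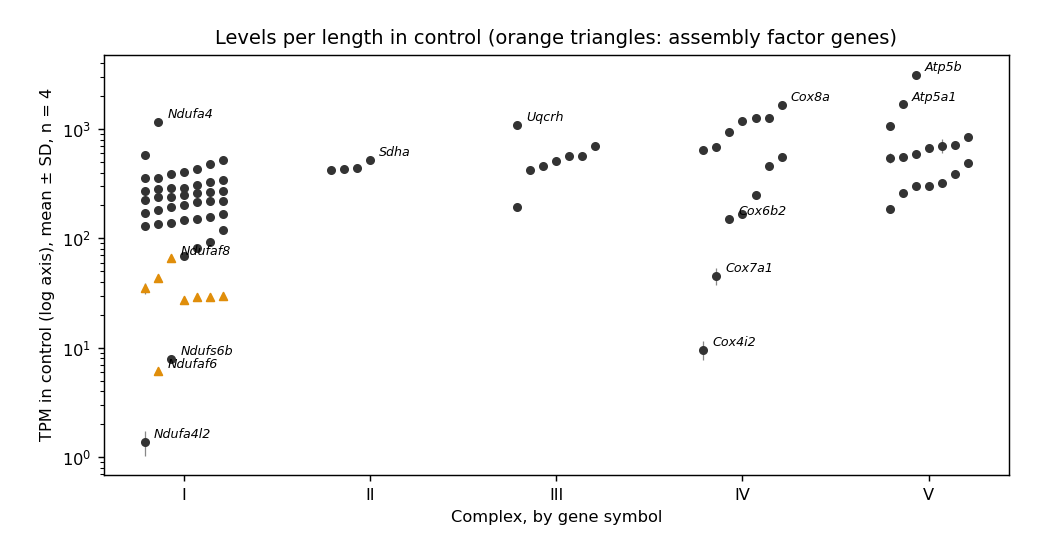
Mean level of each member in control on a log axis of TPM, with the SD of 4 libraries as bars, by complex; sideways position within a complex only separates the points. Atp5b is highest at 3150 TPM, the complex I assembly factor genes (triangles) lie between 6.09 and 65.8 TPM, and Ndufa4l2 and Cox4i2 are the lowest of their complexes.

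Most of these genes were slightly lower with thapsigargin than in control. In edgeR's quasi-likelihood test with Benjamini-Hochberg adjustment over all tested genes, 78 of the 94 members fell, 0 rose and 16 were not called at an adjusted p of 0.05. Among all tested genes, 14.8% fell and 16.4% rose. The median log2 fold change of the members was -0.23, a fall of 14.6%, against -0.05 over all tested genes. The estimate was below zero for 92 of 94 members, and 0 members fell by 2-fold. The estimate was at least 20% lower in 19 and at least 25% lower in 5, which were Ndufa4l2, Cox6b1, Uqcrh, Ndufa5 and Cox7a2. In these bulk samples, fewer cells of a type and less RNA per cell cannot be told apart.

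The members took up 1.56 to 1.62% of all counts in the 4 control libraries and 1.40 to 1.47% in the 4 thapsigargin libraries. Taken library by library, their median log2 ratio to the control mean was 0.01, 0.00, 0.03 and -0.03 in controls 1 to 4, and -0.17, -0.26, -0.24 and -0.23 with thapsigargin. The groups did not overlap in either measure. Of single members, 77 had all 4 thapsigargin libraries under all 4 controls and 0 had them above, which held for 15.1% and 16.7% of all tested genes. With the replicate number as a block, 84 fell and 1 rose, where the background was 28.2% and 23.0% of all genes. Without replicate 4 of every group, 80 fell and 1 rose with a median of -0.20, where 21.2% and 24.4% of all genes did.

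**Figure D2:**
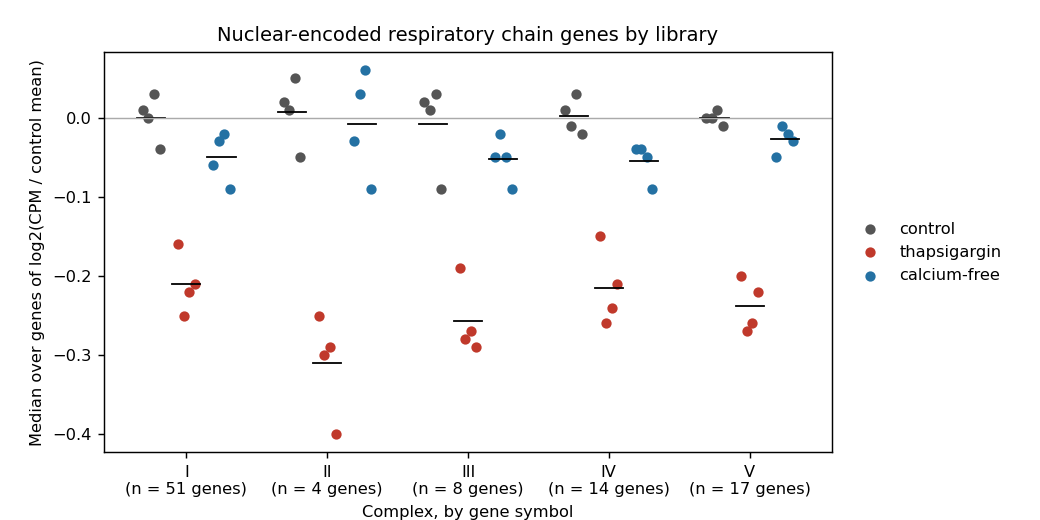
For each of the 12 libraries, the median over the genes of a complex of the log2 ratio of CPM to the control mean; each point is a library and each bar the mean of its group of 4. In all 5 complexes every thapsigargin point lies below every control and calcium-free point.

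In complex I, the NADH dehydrogenase, 40 of 51 genes fell, with a median log2 fold change of -0.21. Of the membrane arm genes, which form the proton pumping part with mitochondrially encoded subunits, 21 of 22 fell (median -0.24). The 22 include the near-identical copies Ndufb4, Ndufb4b and Ndufb4c, between which reads can be split, so these are not separate observations. All 6 genes of the module that reduces ubiquinone fell (median -0.22), as did 8 of 10 genes of the module that oxidises NADH (median -0.18). Ndufa5, an accessory subunit of the quinone module (GRCm39 chromosome 6, 24518661 to 24527689), was at 53.0, 50.0, 56.5 and 49.7 CPM in controls 1 to 4 and at 40.1, 36.7, 38.3 and 37.1 CPM with thapsigargin. The groups did not overlap, and the log2 fold change was -0.46 ± 0.05 (SE, adjusted p = 2.90e-05). Ndufb3 and Ndufa11 of the membrane arm fell by 0.36 ± 0.04 and 0.40 ± 0.05 on the log2 scale. The iron-sulfur protein genes Ndufs7 and Ndufs8, which line the path to ubiquinone, both fell by 0.23 ± 0.03, and the accessory subunit gene Ndufs4 fell by 0.32 ± 0.07. Ndufc2 fell by 0.23 ± 0.06 (adjusted p = 0.0169), a call that was lost without thapsigargin replicate 2 (0.0557) or 3 (0.0561).

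Ndufa4 (chromosome 6, 11900371 to 11907449) was at 231, 222, 228 and 220 CPM in controls and at 180, 176, 176 and 177 CPM with thapsigargin. Every treated library was far below the lowest control, and the log2 fold change was -0.34 ± 0.03 (adjusted p = 7.96e-06). Its rarely expressed relative Ndufa4l2, a gene known for induction in hypoxia, was at 0.396, 0.657, 0.762 and 0.644 CPM in controls and at 0.371, 0.410, 0.323 and 0.365 CPM with thapsigargin. The groups overlapped through control replicate 1. The call at -0.73 ± 0.21 (adjusted p = 0.0205) was lost without control replicate 2 (0.0559), control replicate 3 (0.0674), thapsigargin replicate 3 (0.0600) or replicate 4 of every group (0.0666), in DESeq2 (0.0595) and with no filter on low counts (0.0604).

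Of the assembly factor genes of complex I, 3 of 8 fell, with a median of -0.04. Of the other complex I genes, 37 of 43 fell (median -0.22). The difference between the lists was not tested. Those that fell were Ndufaf8 (-0.34 ± 0.06), Ndufaf3 (-0.31 ± 0.06) and Ndufaf7 (-0.19 ± 0.04). Ndufaf4, a factor for the early steps of assembly, was at 40.9, 41.4, 38.4 and 44.4 CPM in controls and at 43.2, 43.1, 46.6 and 46.7 CPM with thapsigargin. The groups overlapped. Each treated library was above the control of the same number, but like numbers were not shown to be pairs. Its log2 fold change of 0.12 ± 0.05 was not called (adjusted p = 0.0944), but was with the replicate block (0.0217). It was the member that rose with the block. Other complex I genes not called were Ndufv2, Ndufv3, Ndufa3, Ndufab1, the second gene copies Ndufab1-ps and Ndufs6b, and Ndufaf1, Ndufaf2, Ndufaf5 and Ndufaf6. The block called Ndufa3, Ndufv2 and Ndufv3 lower.

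Of the succinate dehydrogenase genes (complex II), which also serve the citric acid cycle, 3 of 4 fell, with a median of -0.29. The membrane anchor genes carried the largest changes. Sdhd (chromosome 9, 50507640 to 50515149) was at 215, 212, 209 and 211 CPM in controls and at 167, 160, 163 and 157 CPM with thapsigargin. Sdhc was at 216, 217, 229 and 211 CPM and at 172, 165, 165 and 161 CPM. Both were lower in every treated library than in any control, with log2 fold changes of -0.39 ± 0.03 (adjusted p = 4.68e-06) and -0.39 ± 0.05 (4.63e-05). The catalytic flavoprotein gene Sdha fell by 0.19 ± 0.04.

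Sdhb, the iron-sulfur subunit gene, differed between replicate 4 and the rest. It was at 192, 194, 195 and 159 CPM in controls, 171, 167, 164 and 144 CPM with thapsigargin and 186, 191, 194 and 157 CPM in calcium-free medium. The library numbered 4 was the lowest in all 3 groups, and the log2 fold change of -0.20 ± 0.08 against control was not called (adjusted p = 0.0951). With the block, which compares within a number, the adjusted p was 1.52e-05. It was 0.0178 without control replicate 4, and without replicate 4 of every group it was 7.58e-05 at a log2 fold change of -0.17.

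All 8 complex III genes fell, with a median of -0.26. Uqcrh, whose product sits between cytochrome c1 and cytochrome c (chromosome 4, 115924162 to 115932267), was at 234, 235, 237 and 231 CPM in controls and at 179, 163, 163 and 169 CPM with thapsigargin. Its log2 fold change was -0.48 ± 0.04 (adjusted p = 1.95e-06). The small subunit gene Uqcrb went from 123, 121, 116 and 121 CPM to 101, 94.3, 96.3 and 98.3 CPM, and fell by 0.30 ± 0.04. The 5 accessory genes of complex III, these 2 included, had log2 fold changes from -0.48 to -0.20. The core protein genes and the Rieske iron-sulfur protein gene lay within that range: Uqcrc1 fell by 0.24 ± 0.05, Uqcrc2 by 0.26 ± 0.06 and Uqcrfs1 by 0.23 ± 0.04. These last 3 were without overlap between the groups.

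In complex IV, cytochrome c oxidase, 12 of 14 genes fell, with a median of -0.22. All 10 broadly expressed subunit genes were among them (median -0.20). Cox6b1, an intermembrane space subunit at the dimer face (chromosome 7, 30316396 to 30325539), gave the smallest p of all members: 234, 232, 232 and 232 CPM in controls against 172, 161, 162 and 170 CPM. Cox7a2 went from 162, 160, 165 and 163 CPM to 125, 117, 120 and 122 CPM. The control libraries of both genes lay within a few percent of each other and far above every treated library. Log2 fold changes were -0.49 ± 0.03 (adjusted p = 7.82e-07) and -0.43 ± 0.03 (1.60e-06). Cox4i1, the largest nuclear-encoded subunit, changed less, from 370, 371, 397 and 367 CPM to 354, 325, 324 and 338 CPM, or -0.17 ± 0.04 (adjusted p = 0.00678, and 0.0535 with no filter on low counts). The small subunit gene Cox7b fell by 0.36 ± 0.04, and Cox8a and Cox6a1, among the highest in level, fell by 0.20 ± 0.04 and 0.19 ± 0.04.

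Cox7a2l, which encodes the supercomplex factor SCAF1, was at 112, 113, 111 and 108 CPM in controls and at 105, 98.6, 101 and 103 CPM with thapsigargin, a log2 fold change of -0.12 ± 0.03 (adjusted p = 0.0114, and 0.167 with no filter on low counts). Per length it stood at 44.8 ± 1.38% of Cox7a2 in controls, at 55.4 ± 0.307% with thapsigargin and at 48.7 ± 0.764% in calcium-free medium (SD, n = 4). The 3 groups did not overlap. A two-sided exact permutation test gave p = 0.0286 for each pair of groups, the smallest possible with 4 against 4. After adjustment over 18 such ratio tests it was 0.103, so these differences did not pass the correction. Groups wholly apart could get no smaller p, so the test could not decide here. Cox6b2 fell by 0.30 ± 0.05, from 36.1, 34.7, 36.6 and 37.3 CPM to 27.6, 29.2, 30.1 and 30.5 CPM. Its ratio to Cox6b1 went from 11.9 ± 0.375% to 13.5 ± 0.858% (exact permutation p = 0.0286, adjusted 0.103). The rare Cox4i2, at 2.01, 2.96, 2.80 and 3.12 CPM in controls and 2.76, 1.69, 1.80 and 2.12 CPM with thapsigargin, overlapped and was not called (-0.38 ± 0.17, adjusted p = 0.123). It was called without control replicate 1 (0.0429) or without thapsigargin replicate 1 (0.0279). Cox7a1 (-0.23 ± 0.17, adjusted p = 0.341) was the other complex IV gene not called, and it was called lower with the replicate block (0.0116).

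Of the ATP synthase genes, 15 of 17 fell, with a median of -0.24. The 3 c-ring genes encode the same mature c subunit with different import sequences, and all fell: Atp5g3 by 0.40 ± 0.03, Atp5g1 by 0.38 ± 0.04 and Atp5g2 by 0.20 ± 0.06 on the log2 scale. Atp5g3 (chromosome 2, 73738791 to 73742793) was at 388, 388, 393 and 387 CPM in controls and at 304, 287, 293 and 293 CPM with thapsigargin (adjusted p = 2.86e-06). Atp5g1 was at 114, 116, 121 and 117 CPM and at 90, 87.8, 86.6 and 96.7 CPM. Atp5g2 was at 94.4, 94.5, 100 and 98.7 CPM and at 84.5, 79.7, 80.9 and 92.5 CPM. In all 3 the groups did not overlap, with the narrowest gap in Atp5g2, where thapsigargin replicate 4 was close to the controls. The call of Atp5g2 (adjusted p = 0.0185) was lost without control replicate 3 (0.0546), thapsigargin replicate 2 (0.0600) or thapsigargin replicate 3 (0.0579), and with no filter on low counts (0.0573). Within the summed c-ring TPM, Atp5g2 made up 27.5 ± 0.466% in controls and 30.2 ± 1.07% with thapsigargin, and Atp5g3 51.0 ± 0.539% and 48.9 ± 1.48% (SD, n = 4). The ratio of Atp5g2 to Atp5g3 per length went from 53.8 ± 1.47% to 61.9 ± 4.19% (exact permutation p = 0.0286, adjusted 0.103).

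The other membrane subunits of ATP synthase all fell, 5 of 5, with a median of -0.31. Atp5k, subunit e at the dimer interface, was at 72.3, 72.0, 72.4 and 76.2 CPM in controls and at 56.7, 52.5, 56.0 and 56.1 CPM with thapsigargin, or -0.41 ± 0.04 (adjusted p = 1.57e-05). Atp5mpl fell by 0.37 ± 0.04 and Atp5j2, subunit f, by 0.31 ± 0.04. In the F1 head, 4 of 5 genes fell (median -0.19), and in the peripheral stalk 3 of 4 (median -0.18). Atp5b was at 2290, 2320, 2380 and 2270 CPM in controls and at 2080, 1990, 1980 and 2080 CPM with thapsigargin, a log2 fold change of -0.19 ± 0.04 (adjusted p = 0.00153), and Atp5a1 fell by 0.18 ± 0.03. Atp5e, the small epsilon subunit, was at 116, 122, 131 and 89.0 CPM in controls and at 108, 104, 105 and 74.5 CPM with thapsigargin. Its number 4 libraries were the lowest in each group, as for Sdhb. The log2 fold change of -0.22 ± 0.16 was not called (adjusted p = 0.33), but it was with the replicate block (8.37e-05). Atp5h of the peripheral stalk was not called in either fit.

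**Figure D3:**
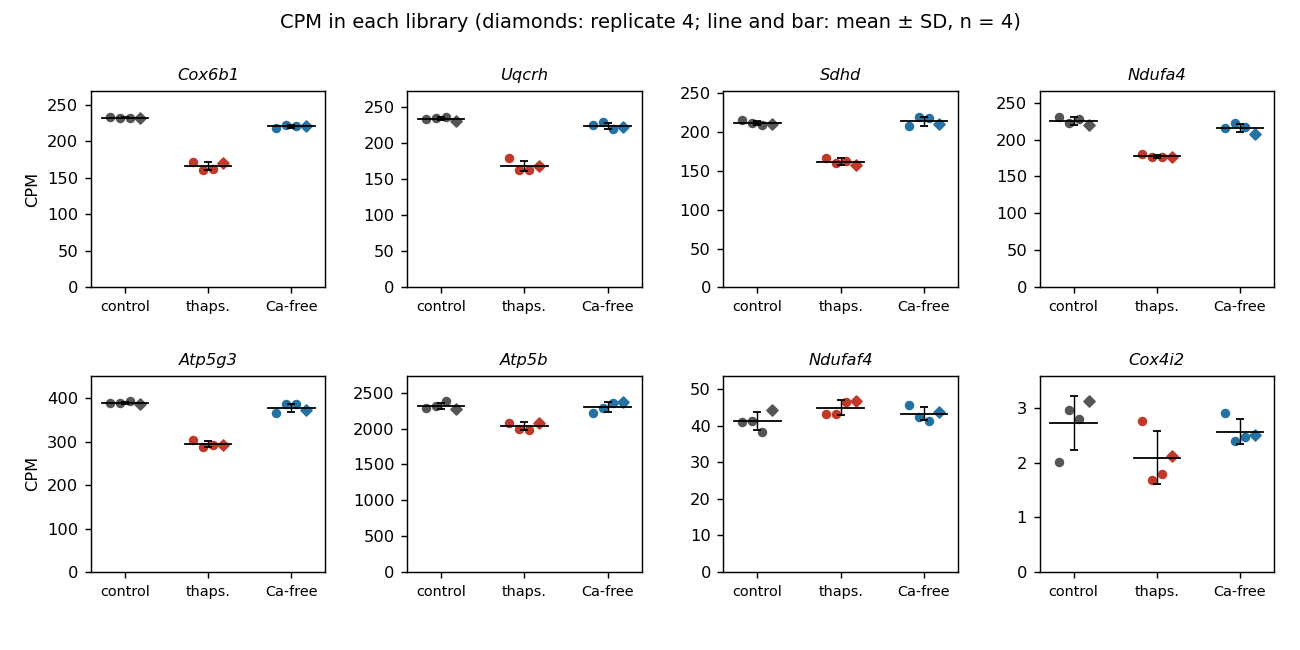
CPM in each of the 12 libraries for 8 members (vertical axes start at 0), with mean and SD per group and replicate 4 as diamonds. Thapsigargin libraries lie below all controls for Cox6b1, Uqcrh, Sdhd, Ndufa4, Atp5g3 and Atp5b, and overlap them for Ndufaf4 and Cox4i2.

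Genes with short transcripts were lower with thapsigargin in general, and the members are short, with a median summed exon length of 849.5 bases against 3597 over all tested genes. Across the 17077 tested genes, Spearman's rho between exon length and the log2 fold change was 0.26, and across the 94 members 0.31. These are descriptions over genes that share the same libraries. Among genes of up to 1000 bases, the median log2 fold change was -0.18 over all 1414 and -0.24 over the 52 members. From 1000 to 2000 bases it was -0.12 over 2709 genes and -0.23 over 29 members, and from 2000 to 4000 bases -0.06 over 5338 genes and -0.19 over 12 members. After subtraction of the trend with length over all genes, the median of the members was -0.08.

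**Figure D4:**
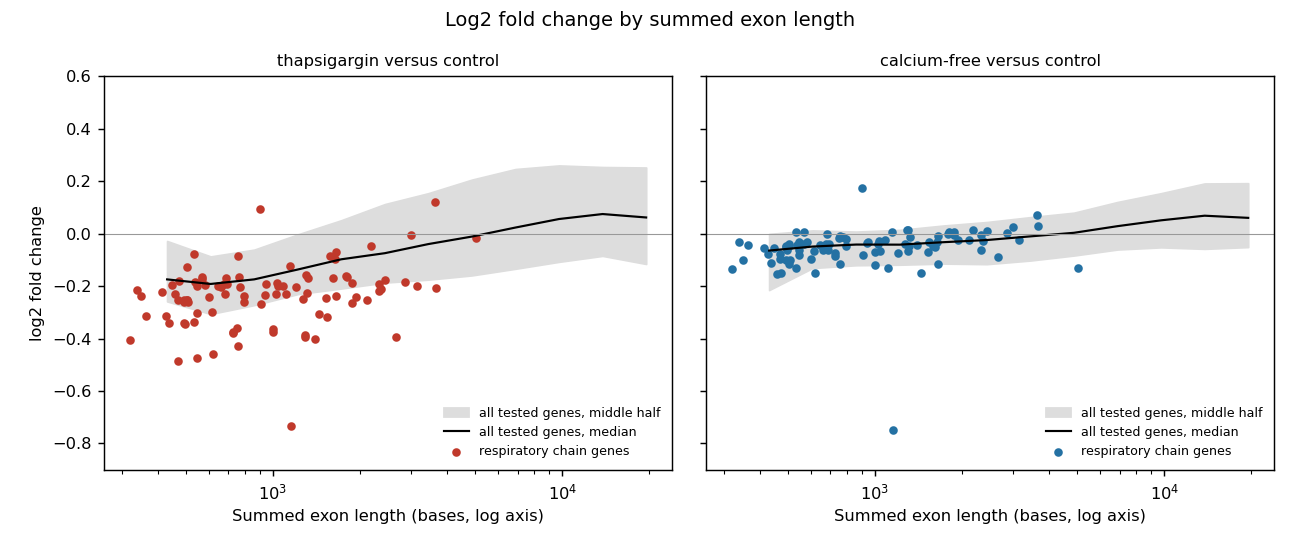
Log2 fold change against summed exon length in bases (log axis) for the members (points), with the median (line) and middle 50% (grey) of all tested genes, for thapsigargin and for calcium-free medium against the same controls. Most members lie below the line with thapsigargin, and short genes as a whole lie below zero.

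In other gene families with a shorter median exon length than all tested genes, more genes also fell than rose with thapsigargin. Of the cytosolic ribosomal protein genes, 49 of 100 fell and 1 rose (median -0.17, median exon length 888.5 bases), and 90 fell and 2 rose with the replicate block. Of the mitochondrial ribosomal protein genes, 38 of 78 fell and 3 rose (median -0.13, median exon length 1505.5 bases), and 55 fell and 4 rose with the block. Of the proteasome subunit genes, 22 of 38 fell and 1 rose (median -0.13, median exon length 1446 bases), and 28 fell and 1 rose with the block. Whether the respiratory chain genes differ from these families was not tested.

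The partners of the members in the chain gave a mixed picture. Cycs, which encodes the carrier cytochrome c between complexes III and IV, and Cyc1, which encodes the cytochrome c1 subunit of complex III and falls outside the symbol rule, fell by 0.29 ± 0.03 and 0.25 ± 0.04 on the log2 scale. Of 47 further assembly factor genes, 12 fell and 4 rose (median -0.08). The copper chaperone gene Cox19 fell by 0.41 ± 0.06 and the complex I factor gene Dmac1 by 0.33 ± 0.04, whereas Tmem186, another complex I factor gene, rose by 0.38 ± 0.06. With the block, 20 fell and 5 rose. Of 16 genes for regulators of mitochondrial biogenesis, 5 rose and 2 fell. Ppargc1a, the coactivator PGC-1alpha, had a mean of 62.2 ± 1.22 CPM in controls and 79.6 ± 2.43 CPM with thapsigargin (SD, n = 4), and rose by 0.36 ± 0.04 on the log2 scale (adjusted p = 3.59e-05), and its relative Pprc1 rose by 0.44 ± 0.09. Sp1, Ppargc1b and the mitochondrial transcription factor gene Tfam also rose, by 0.34 ± 0.08, 0.76 ± 0.21 and 0.18 ± 0.06. The RNA-binding protein genes Lrpprc and Slirp, whose products stabilise mitochondrial transcripts, fell by 0.16 ± 0.04 and 0.14 ± 0.04. Nrf1 (0.18 ± 0.09, adjusted p = 0.175) and Gabpa (-0.13 ± 0.05, adjusted p = 0.0872) were not called, although both were with the replicate block (8.76e-04 and 0.00745).

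The 13 mitochondrially encoded subunit genes had a median log2 fold change of -0.26 with thapsigargin, and 0 were called. With the replicate block, 3 were called lower, ATP6, COX3 and ND3. Their share of all counts was 2.45 to 2.97% in controls, 1.94 to 2.62% with thapsigargin and 1.55 to 2.72% in calcium-free medium. Summed astrocyte markers were at 7460 to 8580 CPM with thapsigargin against 8380 to 9500 CPM in controls, with 3 of 12 lower and 1 higher, or 10 and 1 with the replicate block. The astrocyte markers had a median log2 fold change of -0.23, with 11 of 12 below zero and a median exon length of 3717.5 bases. Summed microglia markers were at 126 to 174 CPM against 151 to 229 CPM, with 2 of 10 lower, or 10 with the block. The microglia markers had a median of -0.40, with 10 of 10 below zero. Summed neuronal markers were at 352 to 391 CPM against 398 to 430 CPM, with 1 lower and 1 higher of 7 tested of 10. The tested neuronal markers had a median of -0.18, with 6 of 7 below zero. Medians were -0.09 for oligodendrocyte lineage, -0.12 for fibroblast and vascular, -0.17 for ependymal, -0.14 for muscle and -0.09 for proliferation markers. No gene of these lists was at 0 in all libraries. Their part in the result was not tested.

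In calcium-free medium most of these genes were near the controls. Of the 94 members, 1 fell and 0 rose, against 1.55% and 3.78% of all tested genes. The median log2 fold change was -0.04, with the same 4 controls as for thapsigargin, against -0.01 over all tested genes, and 80 of 94 estimates were below zero. Members made up 1.55 to 1.56% of counts in the 4 calcium-free libraries. Library medians were -0.05, -0.02, -0.02 and -0.09 against the control mean and overlapped those of the controls. In 15 members all calcium-free libraries lay under all controls and in 0 above them, which held for 4.44% and 6.05% of all tested genes.

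The gene called was Ndufs7, at 74.1, 72.2, 77.9 and 72.1 CPM in controls, 68.3, 66, 69.1 and 67.1 CPM in calcium-free medium and 63.8, 61.9, 62.4 and 64.4 CPM with thapsigargin (chromosome 10, 80084939 to 80092628). The 3 groups did not overlap. The log2 fold change without calcium was -0.13 ± 0.03 (adjusted p = 0.0473), and it lost the call when any single library other than thapsigargin replicate 4 was left out, with adjusted p from 0.0512 to 0.156. The call was also lost with RLE scaling (0.0516), no filter on low counts (0.125) and only the 2 groups compared (0.138). It held in DESeq2 (0.012), with upper quartile scaling (0.0224), with the replicate block (0.00707) and without replicate 4 of every group (0.0159). With the replicate block 9 members fell and 1 rose (background 7.01% and 10.4%): Ndufs7, Ndufa5, Ndufa3, Ndufb7, Ndufaf3, Ndufa4l2, Cox7a2, Atp5k and Atp5g1 fell, and the assembly factor gene Ndufaf2 rose. Without replicate 4 of every group 9 members fell, against 5.16% of all genes. Without control replicate 4 the count was 2, where 195 of all 17195 genes tested fell. DESeq2 called 4 lower and upper quartile scaling 5, where they called 2.51% and 2.18% of all genes.

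Cox6b1 was at 218, 223, 221 and 221 CPM in calcium-free medium, below its controls without overlap (-0.08 ± 0.03, adjusted p = 0.226). Cox7a2 was at 149, 152, 152 and 147 CPM, also without overlap (-0.12 ± 0.03, adjusted p = 0.0524, and 0.00762 with the block). Sdhd was at 208, 220, 218 and 210 CPM, on both sides of the controls (0.02 ± 0.03). Uqcrh was at 225, 229, 220 and 223 CPM, just under its controls (-0.06 ± 0.04), and Atp5g3 at 366, 386, 386 and 373 CPM (-0.04 ± 0.03). Ndufa4l2 was at 0.416, 0.284, 0.347 and 0.409 CPM. The values 0.284 and 0.347 lay below all 4 controls, and 0.416 and 0.409 below 3 of the 4. The log2 fold change was -0.75 ± 0.22. This was not called (adjusted p = 0.0731), but it was with the replicate block (0.0451) and without control replicate 1 (0.0321). Atp5b overlapped its controls at 2210, 2280, 2350 and 2370 CPM (-0.01 ± 0.04).

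By length, the median log2 fold change in calcium-free medium was -0.05 over all genes of up to 1000 bases and -0.06 over the members among them, and with the trend in length removed the median of the members was 0.00. Of the cytosolic ribosomal protein genes, 1 of 100 fell and 1 rose. Of the mitochondrially encoded genes, ND1 fell in calcium-free medium from 2250 ± 272 to 1470 ± 372 CPM (-0.62 ± 0.16, adjusted p = 0.0444), although the groups overlapped, as in all 13 of these genes. The 13 had a median of -0.49 and 5 fell with the block. None of the 47 further assembly factor genes or 16 biogenesis regulator genes was called in calcium-free medium in edgeR, where the block called 2 assembly factor genes lower and 1 higher and 1 regulator gene higher.

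**Figure D5:**
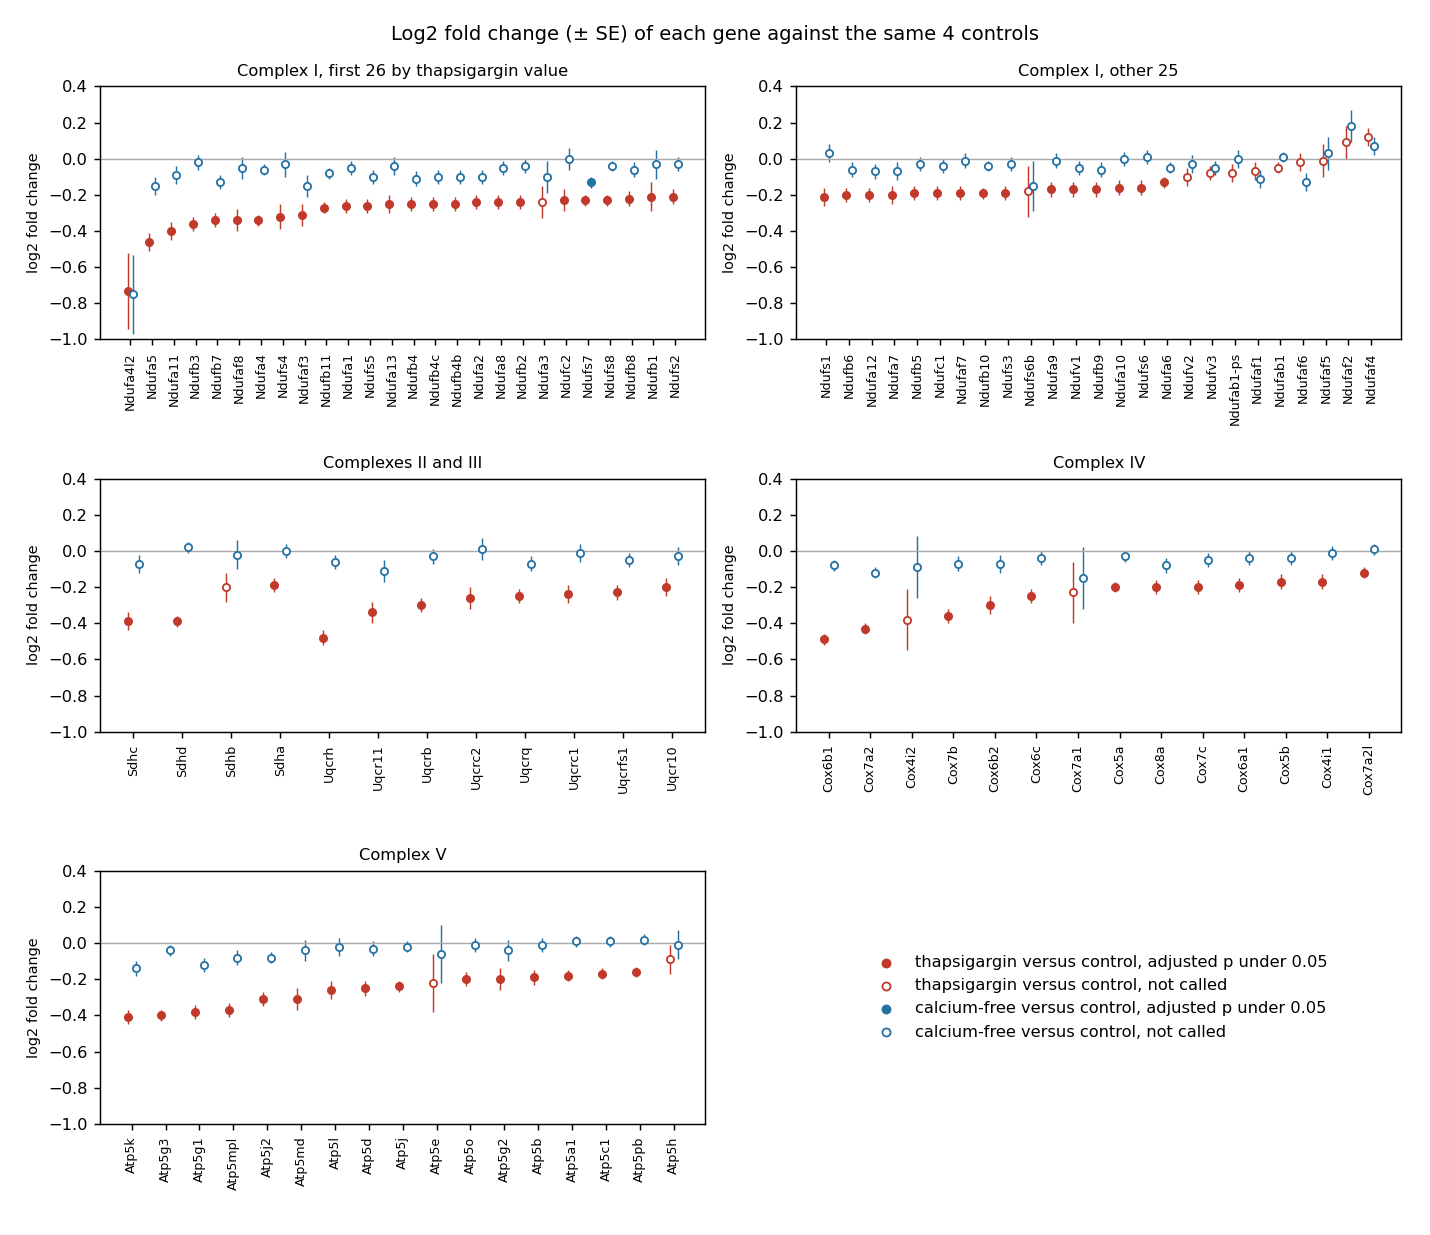
Log2 fold change with SE of every member for thapsigargin (red) and calcium-free medium (blue) against the same 4 controls, by complex and ordered by the thapsigargin value; filled points passed an adjusted p of 0.05 in edgeR. Red points lie below zero for 92 of 94 members, and Ndufs7 is the one filled blue point.

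The treated groups were also compared with each other, in the fit to all 12 libraries, where the controls share in the filter, the scaling and the spread. Of the 94 members, 71 were lower with thapsigargin than in calcium-free medium and 0 higher, against 13.2% and 14.6% of all tested genes. Fitted to the 8 treated libraries alone, 63 were lower, against 9.42% of all genes tested there. The median log2 difference was -0.17. The largest were those of Cox6b1 (-0.41 ± 0.03, adjusted p = 5.89e-06), Uqcrh (-0.41 ± 0.04, 1.18e-05), Sdhd (-0.40 ± 0.03, 8.97e-06), Atp5g3 (-0.36 ± 0.03, 1.38e-05), Ndufb3 (-0.34 ± 0.04, 1.61e-04) and Sdhc (-0.33 ± 0.05, 2.82e-04). All 8 complex III genes, 12 of 14 complex IV genes and 14 of 17 complex V genes were lower, as were 34 of 51 in complex I and 3 of 4 in complex II. With the replicate block 80 were lower and 0 higher, where the background was 26.9% and 22.4%. In 72 members the groups did not overlap in this direction and in 1 in the other (13.4% and 14.9% of all tested genes). The latter was Ndufaf6, which was not called (0.11 ± 0.05, adjusted p = 0.131). Without a filter on low counts, with 29089 genes tested, 47 members were lower, against 4.29% of these genes, and with the trend in exon length removed the median was -0.08. The 7 genes that fell with thapsigargin against control but were not called here were Ndufaf3, Ndufa4l2, Ndufb1, Ndufb9, Ndufa6, Ndufa7 and Atp5g2.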

How the data were processed

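Poly-A RNA-seq of 12 libraries was used, in groups taken from the sample titles. The genome build was GRCm39, and the tools were STAR 2.7.2b, cutadapt 1.17, featureCounts 1.6.4 (Subread) and bcl2fastq 2.20.0.422, per the submitters' processing notes. How they were set, strand included, was not given in the sources used here, so genes that overlap another gene are uncertain. Values in the deposited table are estimated counts of each gene. Between 14.2% and 15.9% of values in a library were not whole, as when reads are shared between features, and they were rounded (ties to the even number) for count models. Members whose reads can be split with a near-identical copy (such as Ndufb4, Ndufb4b and Ndufb4c, or Ndufab1 and Ndufab1-ps) are uncertain: 10 members had no whole value in any library, and 56 were whole in at least 6.

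CPM with TMM-normalised library sizes, and TPM from the summed exon lengths in the table, were computed from the counts. The quasi-likelihood test of edgeR 4.0.16 was run in R 4.3.3 on all genes (robust estimation, group-wise filter with minimum count 10, 1 mean per group over all 12 libraries, 9 residual degrees of freedom). Benjamini-Hochberg adjustment was made within each contrast, genes were called at an adjusted p of 0.05, and standard errors were derived from the test statistic. The computation was tested on simulated data. Alternatives were DESeq2 1.42.0, RLE and upper quartile scaling, no filter, a fit to only the groups compared, the replicate block, exon length correction, subunit genes only, and leaving out libraries. The count of members whole in at least 6 libraries was added after the data were seen. The same replicate numbers occur in all groups. Across genes, deviations from group means of like-numbered libraries correlated at r = 0.159 to 0.836, always above 0.1. The main test did not pair libraries, and the number entered the fits only as the block. Within number 4, r was 0.814 to 0.836. Among numbers 1 to 3, r was 0.159 to 0.392 between like numbers and 0.238 to 0.412 between unlike ones. In these the number itself gave no closer match, so r above 0.1 did not show that like numbers are pairs.

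The members and all lists were chosen with earlier results of these data known. Named genes were the 2 smallest p of each complex and contrast, the highest and lowest control levels of each complex, all members called higher and the 6 largest falls of a contrast, fixed isoform groups and the Sdh genes. Other members, such as those with single values lost or gained under an alternative, were named after their values were seen. The ATP synthase inhibitor gene of the rule carries the symbol Atpif1 in the table and is no member. Promoters came from RefSeq in GRCm38.p6, matched by gene ID, and coordinates of genes from the table. No molecular identifiers are described, so precision is that of read counts.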

Additional observations from a re-analysis of the deposited data

Results flagged for a closer look

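Of 84 groups of 4 library values, 78 were CPM values of 26 members and 6 were the share and the median of all members in each group. Among them, 6 held a library that stood apart from the other 3 by Dixon's criterion at 95%. Chance flags about 1 in 20 groups. Cox4i1 was high in control replicate 3, at 397 CPM. Sdha and Sdhb were low in control replicate 4, at 563 and 159 CPM, and Atp5k was high there, at 76.2 CPM. Atp5k was low in thapsigargin replicate 2, at 52.5 CPM, and Atp5e was low in thapsigargin replicate 4, at 74.5 CPM.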

How the results depend on the processing

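Against control, the count of members lower with thapsigargin was 68 to 84 under DESeq2, both other scalings, no filter, only the groups compared and the replicate block, and 75 to 80 with libraries left out. It was 44 of 56 among members whole in at least 6 libraries. Over all genes tested, the count lower ran from 1456 of 29089 with no filter to 4817 of 17077 with the replicate block. With libraries left out it was 1924 of 17238 to 3598 of 17004. The count of members higher was 1 in DESeq2 and with the replicate block, and 0 to 1 with libraries left out, where it was 1 without control replicate 4 and without replicate 4 of every group. The median was -0.24 to -0.20 with libraries left out and -0.08 with the exon length trend removed, with or without the replicate block.

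In calcium-free medium the count lower was 4 in DESeq2, 5 with upper quartile scaling, 9 with the replicate block and 0 with RLE scaling, no filter or only the groups compared. Of all genes tested, 251 of 17077 were lower with RLE scaling, 175 of 29089 with no filter and 96 of 16663 with only the groups compared. With libraries left out the count of members was 0 to 9, while 76 of 17266 to 877 of 17004 of all genes were lower. It was 0 without any single calcium-free library, control replicate 2 or 3, or thapsigargin replicate 1, 2 or 3, and it was 9 without replicate 4 of every group. The count higher was 1 with the replicate block. The median was -0.06 to -0.03 with libraries left out, -0.07 with upper quartile scaling and 0.00 with the exon length trend removed, with or without the block. Upper quartile scaling moved the split of all called genes with thapsigargin from 2531 lower and 2800 higher to 3241 and 2609.

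For thapsigargin against calcium-free medium, the count lower was 47 without a filter, 39 of 56 among members whole in at least 6 libraries, and 58 to 75 with libraries left out. Of all genes tested, 1247 of 29089 were lower without a filter, and 1623 of 17266 to 3293 of 17004 with libraries left out. The median of the members was -0.19 to -0.15 with libraries left out and -0.08 with the length trend removed, with or without the replicate block. The causes were not tested. For the named members, no log2 fold change turned its sign while called. Low depth limits the precision for Ndufa4l2, which lay under 1 CPM in every library.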
